A study of Homo sapiens with 4 samples.

Results

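Genes of the Hippo pathway and targets of its effector YAP were examined in 2 established human pancreatic cancer cell lines, SW1990 and PANC-1, either left unirradiated or exposed to 10 Gy of X-rays. The 10 genes were chosen by name from the 58174 genes of the deposited table: the effectors YAP1 and WWTR1 (which encodes TAZ), the upstream regulator WWC1 (KIBRA), the transcription factors TEAD1, TEAD3 and TEAD4, the kinases LATS1 and LATS2, and the target genes CTGF (also CCN2) and CYR61 (also CCN1). The study sequenced RNA of irradiated and unirradiated cultures to follow transcriptome changes after radiation. It gave 4 libraries, a single one for each combination of line and treatment. The 4 groups were unirradiated SW1990, SW1990 after 10 Gy, unirradiated PANC-1 and PANC-1 after 10 Gy. The lines were grown in different media, so line and medium cannot be told apart, and the time from radiation to RNA extraction is not given in the sources used here. The libraries held 17939210 and 18388969 counts for unirradiated and irradiated SW1990 and 23451153 and 20154644 counts for unirradiated and irradiated PANC-1. With 1 library per group no difference after radiation or between the lines has a check by replicate cultures, and every interval below covers counting error only. RNA of whole cultures was measured, in which fewer cells of a type and less RNA per cell cannot be told apart.

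In the Hippo pathway, signals from cell junctions, polarity proteins and the cytoskeleton act on a kinase cascade in which MST kinases (STK3 and STK4) with SAV1 activate LATS1 and LATS2 with their MOB1 cofactors. Active LATS kinases phosphorylate YAP and TAZ, which are then kept in the cytoplasm or degraded. Unphosphorylated YAP and TAZ enter the nucleus and bind TEAD factors, which recognise the motif GGAATG and drive growth and matrix genes such as CTGF, CYR61 and ANKRD1. The activity of YAP is set largely at the protein level, which RNA counts do not measure.

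Among the promoters of these genes, CTGF stood out for the number of TEAD motifs, so its upstream sequence is shown, together with that of ANKRD1, the target gene whose counts differed between treatments by more than the threshold in each line. Both are RefSeq sequences of GRCh38.p14, minus strand, written 5′ to 3′ up to the base before the outermost start of the gene in GENCODE 29, with GGAATG in capitals. The CTGF stretch is chr6:131951374-131951622 and the ANKRD1 stretch is chr10:90921277-90921337.
CTGF: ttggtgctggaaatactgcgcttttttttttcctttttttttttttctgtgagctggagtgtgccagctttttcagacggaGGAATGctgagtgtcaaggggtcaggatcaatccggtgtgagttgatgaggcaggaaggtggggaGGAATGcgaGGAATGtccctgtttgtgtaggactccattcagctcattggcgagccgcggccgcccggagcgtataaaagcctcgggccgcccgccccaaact
ANKRD1: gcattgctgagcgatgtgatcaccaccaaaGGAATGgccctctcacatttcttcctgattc
In CTGF the first bases of the 3 matches lay at -169, -104 and -95 from the RefSeq start. ANKRD1 had a match at -220 and another at -128, the latter inside the first exon of the GENCODE 29 model and so not printed. GGAATG was searched with its reverse complement CATTCC in windows of 300 bases, from 250 before to 50 after each RefSeq start. Of 35116 windows, 14% held at least 1 match, 1.36% held at least 2 and 0.125% held at least 3. Windows were at hand for 7 of the 10 genes, and 3 of these had a match: CTGF, YAP1 with 1 at -162 and LATS2 with 1 at 10 bases after the start. WWTR1, WWC1, TEAD3 and LATS1 had none of these letters in their windows. A match describes the sequence and is not a measured binding site.

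The effectors came first. YAP1 (chr11:102110461-102233423, plus strand, GRCh38, protein coding) is the transcriptional coactivator that the pathway restrains. It had 55.3 and 47.9 FPKM in unirradiated and irradiated SW1990 and 63.4 and 70.4 FPKM in unirradiated and irradiated PANC-1, where FPKM is the level scaled to transcript length and library size. It was the most abundant of the 10 genes in both SW1990 libraries, and all 4 libraries lay within a narrow range. Its paralogue WWTR1 (chr3:149517235-149736714, minus strand) behaved differently. WWTR1 had 3.34 and 3.77 FPKM in unirradiated and irradiated SW1990, from 167 and 253 counts. In PANC-1 it had 58.8 and 49.5 FPKM in unirradiated and irradiated cells, from 4577 and 4154 counts. Both PANC-1 libraries stood far above both SW1990 libraries. Of the summed FPKM of the pair of effectors, WWTR1 made up 5.7% and 7.3% in unirradiated and irradiated SW1990, and 48.1% and 41.3% in unirradiated and irradiated PANC-1.

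The upstream genes ran in the other direction or were close to even. WWC1 (chr5:168291651-168472303, plus strand) encodes a scaffold that promotes LATS activation. Its level was 33.7 and 40.3 FPKM in unirradiated and irradiated SW1990 against 11.6 and 8.84 FPKM in unirradiated and irradiated PANC-1, with no overlap between the lines. LATS1 (chr6:149658153-149718256, minus strand), a kinase that phosphorylates YAP and TAZ, had 13.8 and 12.7 FPKM in unirradiated and irradiated SW1990 and 13.4 and 10.0 FPKM in unirradiated and irradiated PANC-1. The levels of LATS1 in the lines overlapped. LATS2 (chr13:20973032-21061547, minus strand), its paralogue and itself a known YAP target, had 10.3 and 12.3 FPKM in unirradiated and irradiated SW1990 and 6.44 and 5.65 FPKM in unirradiated and irradiated PANC-1. LATS1 made up between 50.9% and 67.5% of the summed LATS FPKM over the 4 libraries.

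The TEAD factors carry YAP and TAZ to DNA. TEAD1 (chr11:12674591-12944483, plus strand) had the most even level of the 10, with 35.9 and 40.4 FPKM in unirradiated and irradiated SW1990 and 38.2 and 37.8 FPKM in unirradiated and irradiated PANC-1. TEAD4 (chr12:2959330-3040673, plus strand) had 32.8 and 31.3 FPKM in unirradiated and irradiated SW1990 and 21.1 and 19.3 FPKM in unirradiated and irradiated PANC-1. TEAD3 (chr6:35473597-35497076, minus strand) was the lowest of the 3, at 6.86 and 9.64 FPKM in unirradiated and irradiated SW1990 and 2.00 and 4.81 FPKM in unirradiated and irradiated PANC-1. Of the summed FPKM of TEAD1 to TEAD4, TEAD1 took 42.7% and 42.1% in unirradiated and irradiated SW1990 and 56.2% and 53.6% in unirradiated and irradiated PANC-1. In all 4 libraries TEAD1 and TEAD4 together held most of the TEAD transcript.

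Both target genes were far higher in PANC-1. CTGF (chr6:131948176-131951373, minus strand) encodes a secreted matricellular protein. It had 577 and 474 counts, or 11.2 and 9.06 FPKM, in unirradiated and irradiated SW1990, and 4728 and 3164 counts, or 70.0 and 54.2 FPKM, in unirradiated and irradiated PANC-1. CYR61 (chr1:85580761-85583962, plus strand) encodes a matricellular protein of the same family. It had 681 and 772 counts, or 13.9 and 15.5 FPKM, in unirradiated and irradiated SW1990, and 27916 and 15327 counts, or 444 and 280 FPKM, in unirradiated and irradiated PANC-1. CYR61 was thus the most abundant of the 10 genes in both PANC-1 libraries and ranked 5 in both SW1990 libraries.

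**Figure D1:**
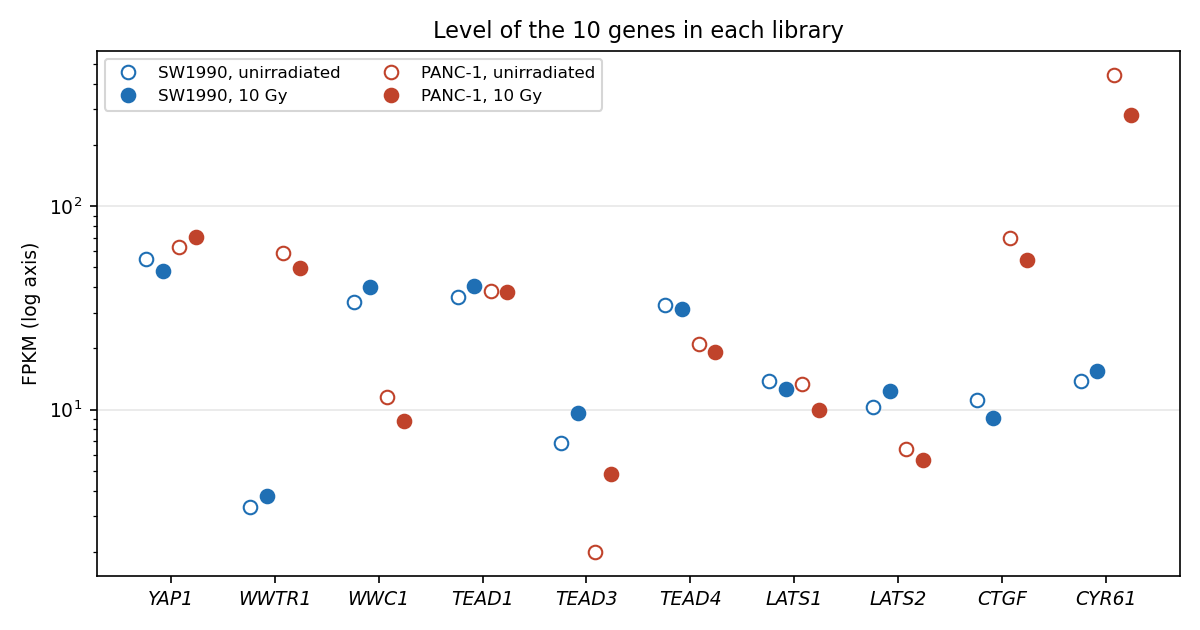
Level of each of the 10 genes (x axis) in FPKM on a log axis (y axis), 1 point per library, open for unirradiated and filled for 10 Gy, blue for SW1990 and red for PANC-1. WWTR1, CTGF and CYR61 sit higher in both PANC-1 libraries, WWC1, TEAD3, TEAD4 and LATS2 sit higher in both SW1990 libraries, and the points of YAP1 and TEAD1 lie close together.

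The lines were compared in 1 fit of all 4 libraries that also held treatment as a term (quasi-likelihood test of edgeR, Benjamini-Hochberg adjustment), in which each treatment gave 1 difference between lines and 1 residual degree of freedom was left. That residual is the change of the line difference with treatment. The p thus does not measure the spread between replicate cultures of a line. A gene was called at an adjusted p under 0.05. Of the 10 genes 6 were called, 3 higher in SW1990 and 3 higher in PANC-1. Over all 18244 genes tested 44.4% were called, 21.6% higher in SW1990 and 22.8% higher in PANC-1, so a call between these lines was common. The median log2 difference was 0.05 over the 10 genes and -0.01 over all genes tested, with values given as SW1990 minus PANC-1.

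Higher in PANC-1 were WWTR1, CTGF and CYR61, the TAZ effector and both target genes. WWTR1 differed by -4.30 on the log2 scale, 19.7-fold higher in PANC-1 (edgeR quasi-likelihood adjusted p = 0.00038). CTGF differed by -2.78, 6.89-fold higher in PANC-1 (edgeR adjusted p = 0.00043). CYR61 differed by -4.73, 26.5-fold higher in PANC-1 (edgeR adjusted p = 0.000484), and 5.1% of all genes tested lay as far in that direction. In each of these genes both pairs of libraries showed the same direction. For CYR61 the log2 difference was -5.20 (95% counting interval -5.31 to -5.09) between the unirradiated libraries and -4.26 (-4.37 to -4.16) between the irradiated libraries.

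Higher in SW1990 were WWC1, TEAD3 and LATS2. WWC1 was 3.73-fold higher (log2 difference 1.90, edgeR adjusted p = 0.00218). TEAD3 was 2.41-fold higher (1.27, edgeR adjusted p = 0.00954). LATS2 was 1.68-fold higher (0.75, edgeR adjusted p = 0.0346), with 0.45 (0.32 to 0.57) between the unirradiated and 1.06 (0.92 to 1.19) between the irradiated libraries. The call of LATS2 was lost without the filter on low counts and, at a fold limit of 2, in the unirradiated pair alone.

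The other 4 genes did not pass. TEAD4 was 1.37-fold higher in SW1990 (log2 difference 0.45, edgeR adjusted p = 0.0706) and LATS1 1.19-fold higher (0.25, edgeR adjusted p = 0.208). YAP1 was 1.34-fold higher in PANC-1 (-0.42, edgeR adjusted p = 0.06). TEAD1 differed by -0.16 (edgeR adjusted p = 0.468), with -0.35 (-0.40 to -0.30) between the unirradiated libraries and 0.04 (-0.02 to 0.09) between the irradiated ones. A p that misses the threshold does not show that these levels were equal.

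**Figure D2:**
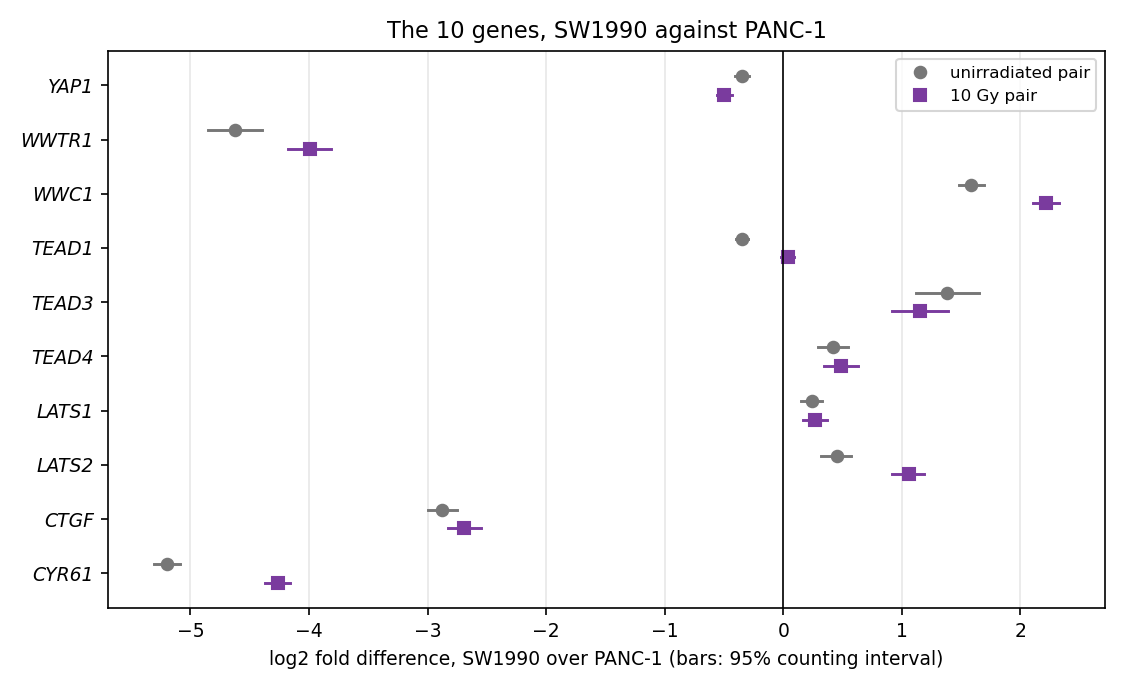
Log2 fold difference between SW1990 and PANC-1 (x axis, SW1990 over PANC-1) for each of the 10 genes (y axis), circles for the unirradiated pair of libraries and squares for the pair after 10 Gy, bars for the 95% counting interval. CYR61, WWTR1 and CTGF lie far to the left in both pairs, WWC1 lies farthest to the right after 10 Gy at 2.22, and TEAD1 lies at -0.35 and 0.04.

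None of the 10 genes passed the threshold after radiation in either line. Irradiated and unirradiated libraries of a line were compared by a test on the reads (edgeR's exactTest at dispersion 0), which compares these libraries and not the conditions, and a gene was called at a q-value under 0.001 and a fold change above 2. In SW1990, 0 of the 10 genes were called, beside 4.23% of 15731 genes tested, 2.42% higher and 1.81% lower after 10 Gy. In PANC-1, 0 of the 10 were called, beside 4.7% of 15159 genes tested, 2.36% higher and 2.35% lower. At a fold limit of 1.5 WWTR1 passed in SW1990 and CYR61 in PANC-1, 1 of 10 genes in each line, beside 9.42% of all genes in SW1990 and 11.7% in PANC-1. In the fit of all 4 libraries with line as a covariate, 0 of the 10 genes and 0% of 18244 genes were called by edgeR's quasi-likelihood test, while 870 genes but none of the 10 had an unadjusted p under 0.05. On the same genes DESeq2 called 312 and limma called 1, none of them among the 10.

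The effectors differed by less than 2-fold. YAP1 had 4097 and 3632 counts in unirradiated and irradiated SW1990, a log2 fold change of -0.15 (95% counting interval -0.22 to -0.09) at scaled library sizes. In PANC-1 it had 5829 and 5296 counts, a log2 fold change of -0.01 (-0.06 to 0.05). From FPKM the change in PANC-1 was 0.15, so YAP1 had no stable direction there. WWTR1 was 1.54-fold higher after radiation in SW1990 (0.62, 0.33 to 0.91) and at -0.01 (-0.07 to 0.05) in PANC-1. From the FPKM values the change of WWTR1 was only 0.17 in SW1990 and was -0.25 in PANC-1. The counts and the FPKM thus gave different sizes for it in each line.

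WWC1, LATS2, TEAD1 and CYR61 were higher after radiation in SW1990 and lower in PANC-1, each with both counting intervals clear of 0. WWC1 had a log2 fold change of 0.38 (0.31 to 0.45) in SW1990 and -0.25 (-0.38 to -0.12) in PANC-1. LATS2 had 0.29 (0.18 to 0.41) in SW1990 and -0.31 (-0.46 to -0.17) in PANC-1. TEAD1 had 0.25 (0.20 to 0.31) in SW1990 and -0.13 (-0.18 to -0.08) in PANC-1. In PANC-1 TEAD1 was at -0.04 with total counts and -0.01 from FPKM. CYR61 had 0.20 (0.05 to 0.35) in SW1990 and -0.73 (-0.76 to -0.71) in PANC-1, the latter a 1.66-fold lower level. Among all genes tested in PANC-1, 7.22% lay at least as far down as CYR61.

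CTGF and LATS1 were lower after radiation in both lines. CTGF had a log2 fold change of -0.26 (-0.44 to -0.09) in SW1990 and -0.45 (-0.51 to -0.38) in PANC-1. LATS1 had -0.27 (-0.36 to -0.18) in SW1990 and -0.30 (-0.40 to -0.20) in PANC-1. In the fit of both lines the values were -0.36 for CTGF and -0.28 for LATS1, with an edgeR adjusted p of 0.944 for each. TEAD4 had -0.09 (-0.22 to 0.04) in SW1990 and -0.16 (-0.30 to -0.01) in PANC-1.

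TEAD3 was higher after radiation in both lines, with 404 and 480 counts in unirradiated and irradiated SW1990 (0.27, 0.08 to 0.46) and 173 and 223 counts in unirradiated and irradiated PANC-1 (0.50, 0.20 to 0.79). Its FPKM in PANC-1 moved further, by 1.26 on the log2 scale. The count, the FPKM and the library total together imply a transcript length of 3.68 kb in unirradiated and 2.3 kb in irradiated PANC-1 for TEAD3. Why count and FPKM differ was not tested.

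**Figure D3:**
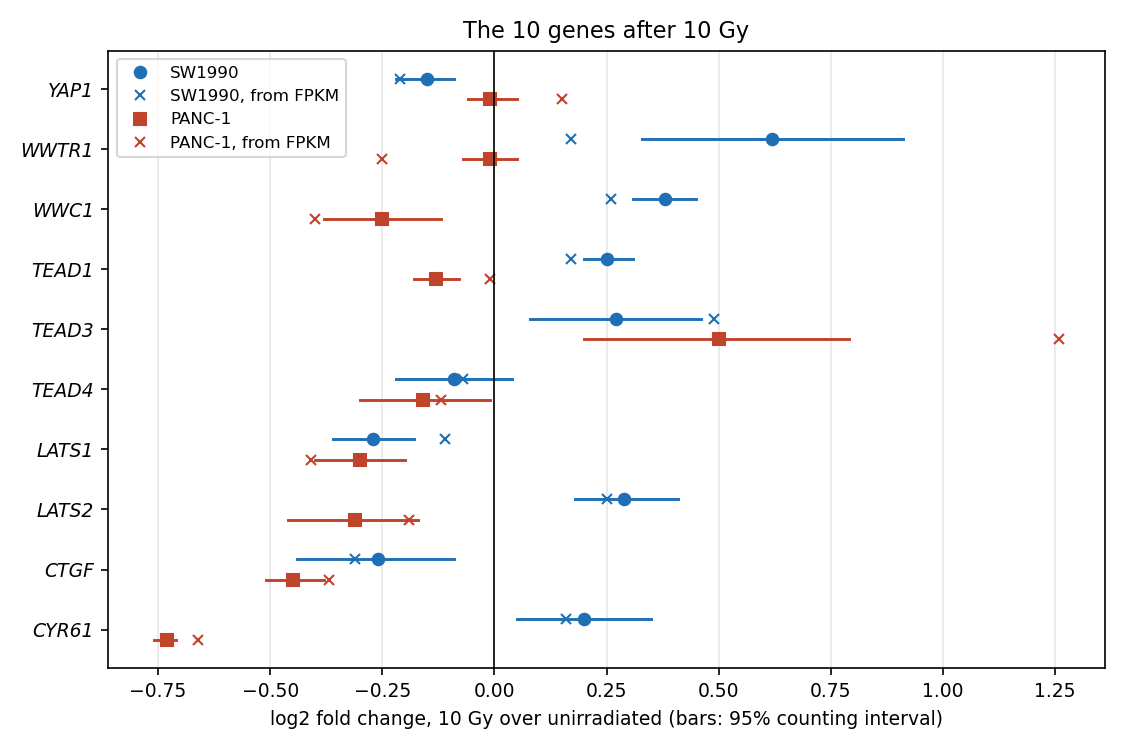
Log2 fold change after 10 Gy (x axis) for each of the 10 genes (y axis), blue circles for SW1990 and red squares for PANC-1 from counts with their 95% counting intervals, and crosses for the same change from FPKM. CYR61 in PANC-1 lies lowest at -0.73, WWTR1 in SW1990 is the highest count value at 0.62, and the crosses of WWTR1 in SW1990 and TEAD3 in PANC-1 lie away from their points.

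Seen over the 10 genes, the log2 fold changes had a median of 0.23 in SW1990 and -0.20 in PANC-1, where the medians of all genes tested were 0.02 and -0.02. At an unadjusted p under 0.05 of the read test, which counting error alone sets, 6 of the 10 were higher and 3 lower in SW1990, beside 27.7% of all genes higher and 20.9% lower. In PANC-1, 1 was higher and 7 were lower, beside 25.9% of all genes higher and 30.5% lower. In total 4 of the 10 genes were higher in SW1990 and lower in PANC-1 at that threshold, beside 8.78% of the 13228 genes tested in both lines. A gene with more counts reaches this p at a smaller change. In either direction 9 of the 10 reached it in SW1990, beside 48.6% of all genes, and 8 in PANC-1, beside 56.4%. Genes of matched counts were not compared, so these shares cannot be read as a response of the 10 genes. The difference between the responses of the lines leaves no residual degree of freedom and was not tested. For CYR61 it was 0.94 (0.78 to 1.09) on the log2 scale, for WWC1 0.64 (0.49 to 0.79), for WWTR1 0.63 (0.34 to 0.93), for LATS2 0.61 (0.43 to 0.79) and for TEAD1 0.38 (0.31 to 0.46), SW1990 minus PANC-1. For YAP1 it was -0.15 (-0.23 to -0.06). These differences are from counts. From FPKM the changes of WWTR1 were 0.17 in SW1990 and -0.25 in PANC-1.

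Further YAP target genes were taken from a published signature as recalled, without the genes already described, which left 19. In SW1990, 15 of them had an FPKM of at least 1 in 1 library of the pair and were tested, with 1 called higher and 0 called lower after 10 Gy, beside 2.42% and 1.81% of all genes. Their median log2 fold change was 0.36, beside 0.02 for all genes. In PANC-1 all 19 were tested, with 0 called higher and 1 called lower, beside 2.36% and 2.35% of all genes, and a median of -0.25 beside -0.02. At an unadjusted p under 0.05, 9 of 15 were higher and 1 lower in SW1990, beside 27.7% and 20.9% of all genes. In PANC-1, 1 of 19 was higher and 12 were lower, beside 25.9% and 30.5% of all genes. Of the 15 tested in both lines, 7 were higher in SW1990 and lower in PANC-1 at that threshold, the pattern that 8.78% of all genes showed. Here too the p depends on the number of counts. In either direction 10 of 15 targets reached it in SW1990, beside 48.6% of all genes, and 13 of 19 in PANC-1, beside 56.4%. Genes of matched counts were not compared.

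The gene called in both lines was ANKRD1, which encodes a nuclear ankyrin repeat protein and is a common readout of YAP activity. ANKRD1 (chr10:90912096-90921276, minus strand) had 93 and 209 counts, or 2.14 and 4.73 FPKM, in unirradiated and irradiated SW1990. It had 1842 and 649 counts, or 32.3 and 13.2 FPKM, in unirradiated and irradiated PANC-1. It rose 2.28-fold in the SW1990 pair (log2 fold change 1.19, 0.83 to 1.56, edgeR exactTest q = 9.14e-11) and fell 2.59-fold in the PANC-1 pair (-1.37, -1.51 to -1.24, edgeR exactTest q = 5.54e-108). The lines thus came closer in ANKRD1 after radiation, from 17.8-fold to 3-fold higher in PANC-1. Its FPKM gave 1.14 and -1.30 for SW1990 and PANC-1. Both calls rest on counting error alone and were lost when a coefficient of variation of 0.2 between replicates was assumed.

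The other targets tested stayed under the fold limit on counts. CCDC80, a secreted matrix protein gene named after its values were seen, was not tested in SW1990 because it was under 1 FPKM in both libraries there. It had 12 and 57 counts in unirradiated and irradiated SW1990 (2.27, 1.35 to 3.30), a 4.82-fold difference that was called without the filter on low values, and 137 and 145 counts in PANC-1 (0.21, -0.13 to 0.56). From FPKM, 3 of the 19 targets passed the fold limit in PANC-1, beside 10.2% of all genes: ANKRD1, CCDC80 at 1.20 and RBMS3 at -1.91, the latter from 63 and 47 counts. CCDC80 and RBMS3 each passed the filter of 1 FPKM through 1 library only, the one in which they were high. At a fold limit of 1.5 on counts, 2 of 15 targets were called in SW1990 and 4 of 19 in PANC-1, beside 9.42% and 11.7% of all genes. ANKRD1 and GADD45A passed that limit in both lines, and TGFB2 and AMOTL2 passed it in PANC-1 only. GADD45A, named after its values were seen, had 471 and 756 counts in unirradiated and irradiated SW1990, a log2 fold change of 0.70. In PANC-1 it had 2130 and 1052 counts, a log2 fold change of -0.89. From FPKM the changes of GADD45A were 0.57 in SW1990 and -0.85 in PANC-1. TGFB2, a growth factor of the TGF-beta family, had 2041 and 972 counts in unirradiated and irradiated PANC-1 (-0.94, -1.05 to -0.83) and 124 and 134 counts in SW1990 (0.13, -0.23 to 0.50). AMOTL2, an angiomotin family member that binds YAP and is induced by it, had -0.77 (-0.86 to -0.68) in PANC-1 and 0.02 (-0.06 to 0.10) in SW1990. From FPKM the changes in PANC-1 were smaller, at -0.52 for TGFB2 and -0.36 for AMOTL2. NT5E, the ectonucleotidase CD73, had 0.44 (0.12 to 0.77) in SW1990 and -0.22 (-0.28 to -0.17) in PANC-1. At an unadjusted p under 0.05 of the read test, ARHGEF17 was the 1 target of 15 higher in both lines, beside 10.6% of all genes. It had 0.42 (0.32 to 0.52) in SW1990 and 0.27 (0.16 to 0.37) in PANC-1.

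**Figure D4:**
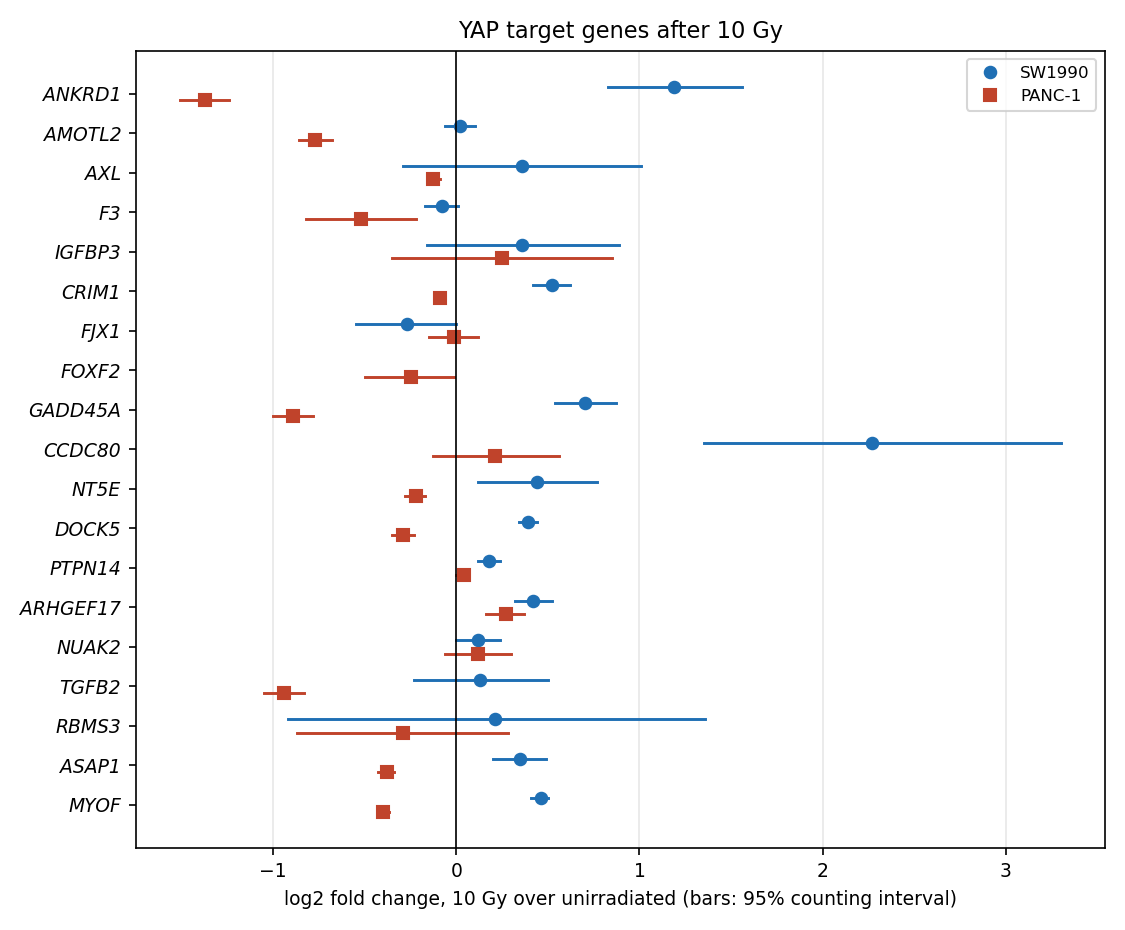
Log2 fold change after 10 Gy (x axis) from counts for 19 further YAP target genes (y axis), blue circles for SW1990 and red squares for PANC-1, with 95% counting intervals. FOXF2 has no point in SW1990, where it had 0 counts, and CCDC80, AXL and RBMS3 were under the FPKM filter in SW1990. ANKRD1 lies at 1.19 in SW1990 and -1.37 in PANC-1.

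Between the lines, 14 of the 19 targets were called, 2 higher in SW1990 and 12 higher in PANC-1, with a median log2 difference of -1.75, beside 44.4% of all genes called, 21.6% higher in SW1990 and 22.8% higher in PANC-1, and a median of -0.01. AXL, a receptor tyrosine kinase, had 38 and 48 counts in unirradiated and irradiated SW1990 and 14409 and 12060 in unirradiated and irradiated PANC-1, a 285-fold difference (log2 difference -8.16, edgeR quasi-likelihood adjusted p = 0.000279). NT5E was 31.8-fold higher in PANC-1 (-4.99, edgeR adjusted p = 0.000328). FOXF2, a forkhead factor, had 0 counts in both SW1990 libraries against 325 and 249 in unirradiated and irradiated PANC-1, at least 178-fold higher in PANC-1 when the floor of 3 counts is set over both libraries of SW1990. It entered the test only through PANC-1, so it counts among the 14 and the 12 but no p is given for it. ANKRD1 was 7.13-fold higher in PANC-1 (-2.83, edgeR adjusted p = 0.0203), a call that was lost without the filter on low counts. The targets did not all follow this direction: F3, which encodes tissue factor and was named after its values were seen, was 10.4-fold higher in SW1990 (3.38, edgeR adjusted p = 0.00046). The other target called higher in SW1990, also named after its values were seen, was the kinase gene NUAK2, 2.35-fold higher (1.23, edgeR adjusted p = 0.00383).

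The rest of the pathway was read by role. Of 14 membrane and junction regulators, 11 were called between the lines, 4 higher in SW1990 and 7 higher in PANC-1, beside 44.4% of all genes. The read test on the irradiated pair alone, with its fold limit of 2, gave 7 calls beside 35.2% of all genes. The median log2 difference was -0.70, and it was -0.25 in the unirradiated pair, -0.05 in the irradiated pair and -0.27 with limma. FAT4, a giant cadherin, had 0 counts in both SW1990 libraries against 4446 and 3588 in unirradiated and irradiated PANC-1, at least 2490-fold higher in PANC-1. AMOTL1, an angiomotin family member, had 0 and 4 counts in unirradiated and irradiated SW1990 against 1650 and 1680 in unirradiated and irradiated PANC-1. CRB3, a polarity protein of epithelial cells, had 424 and 497 counts in unirradiated and irradiated SW1990 and 0 in both PANC-1 libraries. With the floor of 3 counts set over both PANC-1 libraries, CRB3 was at least 330-fold higher in SW1990. FAT4, AMOTL1 and CRB3 entered the test only through the line in which they were high, so they count among the 11 but no p is given for them. FRMD6, a FERM domain protein, did not pass in either radiation comparison, with a log2 fold change of -0.08 (-0.29 to 0.13) in SW1990 and -0.19 (-0.29 to -0.10) in PANC-1.

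In the radiation comparisons 0 of 11 membrane regulators tested were called in SW1990 and 1 of 12 in PANC-1, beside 4.23% and 4.7% of all genes. NF2, which encodes merlin and recruits LATS kinases to the membrane, fell in the PANC-1 pair from 9663 to 4208 counts (-1.07, -1.12 to -1.02). Its FPKM there were 66.4 and 62.6, a log2 change of -0.08, and the implied length went from 6.2 to 3.33 kb. In SW1990 NF2 had 1760 and 2123 counts (0.29, 0.20 to 0.38). The median log2 fold change of the membrane regulators was 0.13 over 11 tested in SW1990 and -0.05 over 12 tested in PANC-1.

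Among 9 kinases and their adaptors, 1 was called in SW1990 and 0 in PANC-1, beside 4.23% and 4.7% of all genes. STK4, the MST1 kinase, rose in the SW1990 pair from 866 to 1917 counts (1.17, 1.05 to 1.28), while its FPKM were 16.6 and 15.7 and its implied length went from 2.92 to 6.64 kb. In PANC-1 STK4 had 1809 and 1305 counts (-0.34, -0.44 to -0.24). For NF2 and STK4 the call thus held on counts and not on FPKM, and the reason was not tested. Both calls were also lost at an assumed coefficient of variation of 0.2, and that of NF2 with library sizes by total counts. SAV1, the scaffold of the MST kinases, had 889 and 1384 counts in unirradiated and irradiated SW1990 (0.66, 0.54 to 0.78) and 437 and 336 in unirradiated and irradiated PANC-1 (-0.25, -0.46 to -0.04), below the fold limit in each line. SAV1 was also the 1 gene of the 9 called between the lines, beside 44.4% of all genes, 3.11-fold higher in SW1990 (1.64, edgeR adjusted p = 0.00732). The kinases TAOK1 and TAOK2, which act on the MST kinases, had log2 fold changes of 0.00 (-0.06 to 0.05) and 0.25 (0.15 to 0.34) in SW1990 and of -0.18 (-0.23 to -0.13) and 0.20 (0.13 to 0.28) in PANC-1. The medians of the 9 genes were 0.03 in SW1990 and -0.18 in PANC-1. In the same order they were 0.02 and -0.04 from FPKM, and -0.02 and -0.09 with total counts.

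Of 6 inhibitors of the kinases, 0 were called after radiation in either line, beside 4.23% of all genes in SW1990 and 4.7% in PANC-1, and the medians were -0.12 over 5 tested in SW1990 (0.05 from FPKM) and 0.07 over 6 in PANC-1 (0.29 from FPKM). Between the lines 4 of the 6 were called, 2 in each direction, beside 44.4% of all genes, and 2 were called with limma, beside 48.4% of all genes. WTIP and LIMD1, LIM proteins of the Ajuba family that bind LATS, were higher in PANC-1, 13.1-fold (-3.72, edgeR adjusted p = 0.000503) and 1.69-fold (-0.76, edgeR adjusted p = 0.0124). STRN3 and SIKE1, parts of the STRIPAK phosphatase complex that acts on the MST kinases, were higher in SW1990, by 1.87-fold (0.90, edgeR adjusted p = 0.00826) and 1.68-fold (0.75, edgeR adjusted p = 0.0186). With limma on log2(FPKM + 1) the calls of LIMD1 and SIKE1 were lost. AJUBA, the LIM protein for which that family is named, had 2760 and 1997 counts in unirradiated and irradiated SW1990 (-0.45, -0.53 to -0.36) and 1428 and 1949 in unirradiated and irradiated PANC-1 (0.58, 0.48 to 0.68). AJUBA, named after its values were seen, was thus lower after radiation in SW1990 and higher in PANC-1, a difference of -1.03 (-1.16 to -0.89) between the lines that was not tested. SLMAP of the STRIPAK complex had -0.12 (-0.23 to -0.01) after radiation in SW1990 and -0.43 (-0.53 to -0.33) in PANC-1. From FPKM SLMAP was at 0.05 in SW1990 and 0.04 in PANC-1, so its direction turned in each line.

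Of 5 other TEAD genes and partners, 4 were tested in SW1990 and 3 in PANC-1. VGLL1 in SW1990 was past the threshold after radiation and the others were not, beside 4.23% and 4.7% of all genes past it. It entered the test only through the library in which it was high, so no p is given. VGLL1, a cofactor that binds TEAD in place of YAP, had 0 counts in unirradiated SW1990 and 49 counts, or 1.75 FPKM, after 10 Gy, at least 16.6-fold higher against a floor of 3 counts. Both PANC-1 libraries had 0 counts of VGLL1. VGLL3, of the same family, had 294 and 397 counts in unirradiated and irradiated SW1990 (0.45, 0.23 to 0.68) and -0.02 (-0.25 to 0.21) in PANC-1. From FPKM VGLL3 was at 0.04 in SW1990 and -0.37 in PANC-1. TEAD2 had 0.13 in each line, with intervals that reached from -0.06 to 0.33 in SW1990 and from -0.06 to 0.32 in PANC-1. From FPKM TEAD2 was at 0.77 in SW1990 and 0.36 in PANC-1, and why count and FPKM differ was not tested. VGLL4, which competes with YAP for TEAD, was the 1 gene of 3 tested in this group called between the lines, beside 44.4% of all genes, 2.18-fold higher in PANC-1 (-1.12, edgeR adjusted p = 0.0041).

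The labelled cell type was checked with marker genes. KRT8, an epithelial keratin, had 1350 and 1890 FPKM in unirradiated and irradiated SW1990 and 786 and 851 FPKM in unirradiated and irradiated PANC-1, and the summed FPKM of 6 epithelial markers was 2880, 3720, 1410 and 1640 in the same order. EPCAM and CDH1, adhesion proteins of epithelial cells, stood higher in both SW1990 libraries than in either PANC-1 library. EPCAM had 217 and 218 FPKM in unirradiated and irradiated SW1990 and 2.28 and 2.81 FPKM in unirradiated and irradiated PANC-1. CDH1 had 140 and 239 FPKM in unirradiated and irradiated SW1990 and 0.673 and 1.21 FPKM in unirradiated and irradiated PANC-1. Of 6 fibroblast markers COL1A2 and DCN were at 0 counts in all 4 libraries, and the list summed to 2.96, 3.88, 9.32 and 11.7 FPKM, led in PANC-1 by COL1A1. The 4 endothelial markers summed to 0.155, 0.309, 6.38 and 5.44 FPKM, nearly all of it KDR in PANC-1. The 5 leukocyte markers summed to 1.77, 2.46, 19.2 and 15 FPKM, led in PANC-1 by CD68, while CD3E was at 0 counts in all 4 libraries. The part of these markers in the differences between the lines was not tested.

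Genes with the most similar profile over the 4 libraries were sought for YAP1, CTGF and CYR61 among 11412 genes that reached 5 FPKM in 1 or more libraries, by the root-mean-square difference of log2(CPM + 1) values centred on their mean. For YAP1 these were WDR53, C1orf43 and JOSD2, at 0.014, 0.0181 and 0.0204, and 3154 genes lay within 0.25 of it, so its flat profile was a common one. For CTGF they were ITGB1, HMGA2 and AFAP1, at 0.0826, 0.087 and 0.0877, with 86 genes within 0.25. ITGB1, an integrin subunit that binds matrix proteins, had 3841 and 3485 counts in unirradiated and irradiated SW1990 and 28767 and 20365 in unirradiated and irradiated PANC-1. For CYR61 they were ANK2, ADAM19 and NRSN2, at 0.132, 0.135 and 0.137, with 29 genes within 0.25. All 4 points of such a profile come from 2 lines, and the likeness is a description of these libraries.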

How the data were processed

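RNA-seq of 4 libraries was analysed from 1 table. For every gene and library the authors deposited read counts and FPKM values. Per the labels, the submitters' processing notes name CASAVA 1.8, FastQC 0.11.2, Trimmomatic 0.36, HISAT2 2.0, StringTie 1.3.3b and DESeq2 1.12.4 on GRCh38. The tool that made the counts and the strand setting are not given in the sources used here. The kit is for mRNA, while the labels describe removal of ribosomal RNA. Loci that name no gene held 0.487%, 0.453%, 0.545% and 0.635% of the counts and entered neither library sizes nor tests. Of 58174 gene identifiers 57836 were found in GENCODE 29.

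Library sizes were scaled by TMM over all 4 libraries. In each line, genes reaching 1 FPKM in either library were tested by the exactTest of edgeR 4.0.16 under R 4.3.3, with the dispersion set to 0 and Benjamini-Hochberg adjustment. A gene was called at q under 0.001 and a fold change above 2, with 0 CPM set to 0.01. The 4 libraries were fitted with edgeR's quasi-likelihood test on line and treatment after filterByExpr (adjusted p under 0.05, common coefficient of variation 0.219). Intervals of a difference between 2 libraries are exact Clopper-Pearson intervals at 95% of the counts. Intervals of the difference between the responses of the lines are 95% intervals of the conditional odds ratio over the 4 libraries. They cover counting error only, since reads without molecular identifiers are not independent molecules. The floor of 3 counts corresponds to 0.128 to 0.167 CPM. DESeq2 1.42.0, limma 3.58.1 on log2(FPKM + 1), other scalings, filters, fold limits and assumed spreads were tried as alternatives. The scripts were tested on simulated data.

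The 10 genes and the lists were chosen with earlier results of these data known. Beside the 10 genes, each list names the genes called after radiation. Up to 3 genes with the largest mean change over the lines were also named, among genes tested in both lines. Up to 3 with the largest difference between lines were named too, among genes reaching 1 FPKM in any library. AMOTL2 and PTPN14 are in both the target and the membrane list.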

Additional observations from a re-analysis of the deposited data

Results flagged for a closer look

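Of the genes named by the rule, 9 had opposite directions after 10 Gy in the 2 lines, with both counting intervals clear of 0. All 9 were higher in SW1990 and lower in PANC-1. At an unadjusted p under 0.05 in each line, 8.78% of 13228 genes had that pattern and 4.85% the reverse. The rule picked genes partly for large changes, so the 9 cannot be read against these shares. It ranked genes by their mean change over the lines, in which opposite changes cancel. AJUBA, not named by the rule, had the reverse pattern, at -0.45 in SW1990 and 0.58 in PANC-1. GADD45A, also not named by it, had the pattern of the 9, at 0.70 in SW1990 and -0.89 in PANC-1. The difference of the log2 fold changes, SW1990 minus PANC-1, was 0.64 for WWC1, 0.38 for TEAD1, 0.61 for LATS2 and 0.94 for CYR61. It was 1.36 for NF2, 1.51 for STK4, 0.91 for SAV1, 2.56 for ANKRD1 and 0.66 for NT5E. With 1 library per group these differences were not tested against the spread between replicates. From FPKM, NF2 had log2 fold changes of 0.21 in SW1990 and -0.08 in PANC-1, and STK4 had -0.08 and -0.25, so STK4 no longer had opposite directions. TEAD1 in PANC-1 was at -0.01 from FPKM and -0.04 with total counts, so the size of its fall there depended on the scaling.

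Outside the genes with a name, 3 loci that overlap the span of TEAD4 on chromosome 12 had counts in all 4 libraries. The loci on the same strand from 2976935 and from 2988160 summed to 215 and 198 counts over the libraries, and the locus on the opposite strand from 2957267 to 235 counts. TEAD4 itself had between 701 and 1026 counts per library. Whether these reads belong to TEAD4 was not tested.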

How the results depend on the processing

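At a fold limit of 1.5 the count of the 10 genes called after radiation moved from 0 to 1 in each line. The gene was WWTR1 in SW1990, beside 9.42% of all genes, and CYR61 in PANC-1, beside 11.7%. From FPKM the count in PANC-1 also moved from 0 to 1 (TEAD3), beside 10.2% of all genes. Between the lines the count of the 10 genes called was 6 beside 44.4% of all genes, and 7 beside 43.6% with total counts. It was 5 beside 20.2% without the filter, 9 beside 52.7% with DESeq2 and 7 beside 48.4% with limma. In the unirradiated pair alone it was 5 beside 36%, and in the irradiated pair alone 6 beside 35.2%. At a fold limit of 1.5 the kinases and adaptors called in SW1990 moved from 1 to 2 of 9, beside 9.42% of all genes. The membrane regulators called in PANC-1 moved from 1 to 2 of 12 at that limit, beside 11.7% of all genes. The cause of these changes was not tested. All genes called after radiation were 665 in SW1990 and 713 in PANC-1, but 1662 and 1540 from FPKM, 1482 and 1777 at a fold limit of 1.5, 97 and 103 with an assumed coefficient of variation of 0.2, and 16 and 10 with 0.4. In PANC-1 the calls were 357 higher and 356 lower, but 455 and 283 with total counts and 966 and 574 from FPKM. In SW1990 they were 380 and 285, but 775 and 887 from FPKM. Total counts moved the median difference between lines of all genes from -0.01 to 0.15.

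Single genes changed direction where their values were near 0 or where counts and FPKM differed. In SW1990 these were, with total counts, AMOTL2 at -0.04, LIMD1 at -0.01 and VGLL4 at -0.04. With DESeq2 size factors TAOK1 was at 0.00. From FPKM STK4 was at -0.08, SLMAP at 0.05, SIKE1 at 0.14, LIMD1 at -0.35 and STRN3 at 0.19. In PANC-1, with total counts, YAP1 and WWTR1 were at 0.08, STRN3 at 0.00, VGLL3 at 0.07 and VGLL4 at 0.01. From FPKM there YAP1 was at 0.15, SLMAP at 0.04, STRN3 at 0.30, VGLL4 at 0.00 and AXL at 0.00. In the fit of both lines WWTR1 was at -0.05 and WWC1 at -0.06 with limma, and LATS2 at 0.01 with total counts, 0.00 with DESeq2 and 0.03 with limma. Between the lines TEAD1 was at 0.00 with limma and 0.04 in the irradiated pair, AMOTL2 at -0.03 in the unirradiated pair, and STK4 at 0.01 with total counts, 0.01 with limma and 0.60 in the irradiated pair. The fit of both lines already pairs the libraries by line, and leaving out 1 of its 4 libraries would leave no residual degree of freedom. No paired analysis by replicate number was possible because each group has 1 library and the labels give no such number. Depth limits the genes with few counts, such as WWTR1, AXL and ANKRD1 in SW1990.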
